A study of Homo sapiens with 24 samples.

Results

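The genes described here encode the nuclear subunits of the mitochondrial respiratory chain and ATP synthase, measured in 4 diffuse large B-cell lymphoma (DLBCL) lines after silencing of the transcription factor FOXP1. Members were taken by name alone, as every gene on the array whose symbol begins with NDUFA, NDUFB, NDUFC, NDUFS, NDUFV, UQCR, COX4 to COX8 or ATP5, together with SDHA, SDHB, SDHC, SDHD, CYC1 and CYCS. This gave 88 genes of 30142 on the array, read by 129 of its 41000 probes, and the brightest probe stood for a gene that had several. By role, 37 belong to complex I, 4 to complex II, 8 to complex III, 1 is cytochrome c, 17 belong to complex IV and 15 to complex V. The other 6 matched by name and are not subunits: NDUFAF1 and NDUFAF2 are assembly factors of complex I, COX4NB is now EMC8, ATP5S is DMAC2L, ATP5SL is DMAC2, and NDUFA4L2 is a paralogue of NDUFA4. NDUFA4 was placed in complex IV, where its protein is now known to sit. The subunits encoded in mitochondrial DNA lie outside the naming rule.

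DB and K422 are lines of the germinal centre B-cell subtype (GCB-DLBCL), and HBL-1 and OCI-Ly3 are lines of the activated B-cell subtype (ABC-DLBCL). All cells received 1 µM of an siRNA by nucleofection, either siFOXP1_308 or siFOXP1_309 against FOXP1 or a non-targeting Stealth negative control (siCtrl), and RNA was taken after 48 h. Each of 24 two-colour Agilent arrays carried siFOXP1 RNA in Cy3 against siCtrl RNA of the same line in Cy5, with 3 replicates for each line and siRNA and so 6 arrays a line. The dyes were never exchanged, so a dye preference of a probe and an effect of silencing cannot be told apart within a line, and such a preference would have the same sign in all 4 lines. A log2 ratio is siFOXP1 over siCtrl, so a positive value is higher on silencing. DB and OCI-Ly3 were scanned in one session and K422 and HBL-1 in another. Where 4 values are given together, they are for DB, K422, HBL-1, then OCI-Ly3. Each subtype is represented by 2 lines, and whether the arrays of both siRNAs in a replicate used the same siCtrl RNA is not given in the sources used here.

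Complex I (NADH dehydrogenase), complex II (succinate dehydrogenase, which is also an enzyme of the tricarboxylic acid cycle), complex III (the cytochrome bc complex) and complex IV (cytochrome c oxidase) pass electrons from NADH and succinate to oxygen. Ubiquinone and the small soluble protein cytochrome c carry the electrons between them. Protons pumped by complexes I, III and IV return through complex V, the ATP synthase. GCB-DLBCL and ABC-DLBCL are known to differ in B-cell receptor and NF-κB signalling, and a subset of DLBCL is known for high expression of oxidative phosphorylation genes. Nuclear genes of the chain are known as targets of the activators NRF1, YY1 and the ETS-family factor GABP.

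RefSeq names matched for all 88 genes, and a promoter window, from 250 bases before to 50 after a transcript start on GRCh38.p14, was listed for 72 of them. Both strands of each window were searched for 4 fixed strings. CCGGAAG, a core of ETS-family sites, was in at least 1 window of 21 of the 72 genes (29.2%), against 12.2% of all 27305 genes in the table. AAGATGGC, a core of YY1 sites, was in 12 (16.7%, against 3.52% of all genes), and the palindromic consensus site of NRF1 was in 4 (5.56%, against 1.52%). TGTTTAC, a core recognised by forkhead factors, the family of FOXP1, was in 1 (1.39%, against 4.19%). A match is a run of letters in the window and was not measured as a binding site. A few of these regions are shown to give the sequence context of genes that recur in the results, each as the 250 bases before the start, read 5′ to 3′ on the gene's strand. Capitals mark a match on either strand, so CTTCCGG is CCGGAAG and GTAAACA is TGTTTAC read on the opposite strand.
SDHB (chr1:17054033-17054282, minus strand), lower in all 4 lines and with an ETS string: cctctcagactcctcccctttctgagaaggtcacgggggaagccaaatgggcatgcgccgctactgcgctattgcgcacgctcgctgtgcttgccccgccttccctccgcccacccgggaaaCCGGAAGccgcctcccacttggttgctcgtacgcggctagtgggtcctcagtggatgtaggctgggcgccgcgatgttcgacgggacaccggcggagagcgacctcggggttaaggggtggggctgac
UQCRQ (chr5:132866392-132866641, plus strand), lower in 3 lines and with an ETS string: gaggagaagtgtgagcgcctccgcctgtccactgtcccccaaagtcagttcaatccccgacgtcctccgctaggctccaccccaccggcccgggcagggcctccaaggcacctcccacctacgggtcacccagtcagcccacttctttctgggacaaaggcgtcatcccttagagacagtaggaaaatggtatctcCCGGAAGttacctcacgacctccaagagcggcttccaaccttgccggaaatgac
SDHD (chr11:112086623-112086872, plus strand), higher in DB and with both an NRF1 and an ETS string: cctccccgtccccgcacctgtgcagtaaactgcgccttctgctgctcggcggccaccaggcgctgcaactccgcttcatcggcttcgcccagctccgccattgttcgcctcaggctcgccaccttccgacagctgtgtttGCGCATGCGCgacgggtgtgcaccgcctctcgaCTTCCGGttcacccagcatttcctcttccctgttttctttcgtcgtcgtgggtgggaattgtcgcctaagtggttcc
COX7A2L (chr2:42368958-42369207, minus strand), the gene with the forkhead string: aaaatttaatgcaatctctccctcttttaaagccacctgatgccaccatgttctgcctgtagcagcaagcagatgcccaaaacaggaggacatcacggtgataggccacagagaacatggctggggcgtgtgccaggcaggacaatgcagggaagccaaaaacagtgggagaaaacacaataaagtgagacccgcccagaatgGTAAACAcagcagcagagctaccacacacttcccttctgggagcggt
NDUFA5 (chr7:123557819-123558068, minus strand), the largest fall that recurred and with no match in any listed window: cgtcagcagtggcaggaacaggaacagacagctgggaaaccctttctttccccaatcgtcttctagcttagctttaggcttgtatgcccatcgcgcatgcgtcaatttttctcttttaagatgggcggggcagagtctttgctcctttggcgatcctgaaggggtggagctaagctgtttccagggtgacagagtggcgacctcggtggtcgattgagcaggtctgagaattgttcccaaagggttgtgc
COX6A2 (chr16:31428361-31428610, minus strand), the largest rise and with no match: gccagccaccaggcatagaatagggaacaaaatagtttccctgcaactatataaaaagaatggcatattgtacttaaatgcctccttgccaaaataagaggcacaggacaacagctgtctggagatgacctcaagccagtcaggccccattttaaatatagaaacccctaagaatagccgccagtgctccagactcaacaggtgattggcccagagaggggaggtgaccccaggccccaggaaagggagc

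FOXP1 was lower on all 24 arrays, by log2 ratios from -2.71 to -0.83. All 7 B-cell markers of a fixed list were well above background on all 6 siCtrl arrays of every line. The 5 GCB markers were so in DB and K422, against 2 of them in HBL-1 and OCI-Ly3. The 5 ABC markers were so in HBL-1 and OCI-Ly3, against 3 of them in DB and 2 in K422. IRF4 and CCND2 were well above background on no siCtrl array of DB or K422, and ENTPD1 on none of K422. Of 6 T and NK cell markers, 0, 3, 2 and 1 were so in the 4 lines, and of 6 myeloid markers 1, 2, 1 and 1. Per array, 57.3% to 64.5% of probes exceeded background clearly in a channel or both. The respiratory chain genes were far better detected: 83 of 88 in DB and 84 of 88 in each of the other lines were well above background in siCtrl RNA on all 6 arrays, against 49.7% to 54.9% of all genes. COX7A1 and COX7B2, tissue-restricted isoforms of complex IV subunits, were well above background on no siCtrl array of any line, and COX4I2, an isoform best known from lung, only on 2 of 6 in HBL-1. Such probes have no measured level. COX6A2, known as the heart and muscle isoform of its subunit, was well above background in siCtrl RNA on every array, as was COX6A1, the form of most tissues.

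The respiratory chain moved little on FOXP1 silencing. A gene was called where the limma test gave a Benjamini-Hochberg adjusted p under 0.05 over all genes and the line mean was at least 0.5 from 0 on the log2 scale, which is 1.41-fold. By that rule 0 of the 88 genes were called in DB, where 2.16% of all genes were called (1.33% higher and 0.829% lower), and 0 in OCI-Ly3, against 4.42% (2.8% higher and 1.62% lower). In K422 1 gene was called (COX6A2, higher), against 4.44% of all genes (2.34% higher and 2.1% lower), and in HBL-1 3 were (COX6A2 higher, NDUFA5 and NDUFC1 lower), against 9.9% (5.73% higher and 4.17% lower). At an unadjusted p under 0.05 the limma fit gave 29 members in DB (33%, against 23.5% of all genes and 39% of expressed genes, a term defined below) and 35 in OCI-Ly3 (39.8%, against 29.2% and 45.2%). The line means of 88, 87, 85 and 88 of the 88 genes in the 4 lines lay within 0.5 of 0. The standard deviation over the members was 0.12, 0.17, 0.23 and 0.14 in that order, against 0.18, 0.23, 0.32 and 0.21 over the genes that were well above background in both channels on every array, called expressed genes below.

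**Figure D1:**
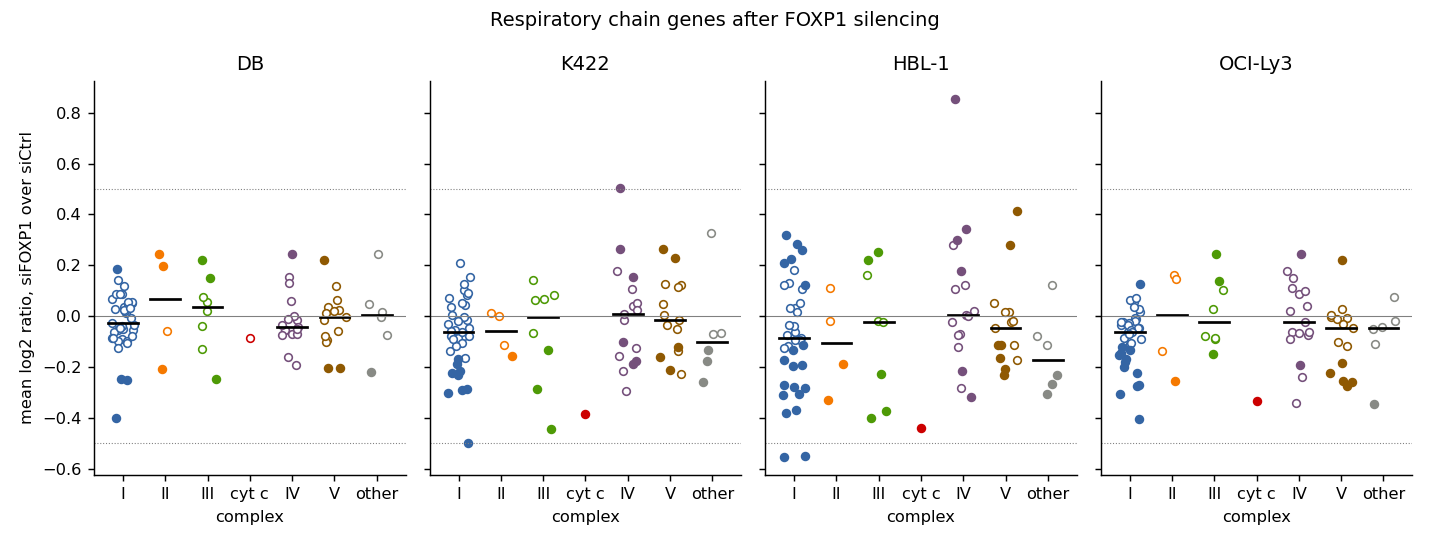
Log2 ratio of siFOXP1 over siCtrl (vertical axis) of each of the 88 genes by complex (horizontal axis), with a panel per line. Each point is the mean of 6 arrays, filled where the adjusted p was under 0.05, the bar is the median of the complex, dotted lines mark 0.5 above and below 0, and "other" holds the 6 genes matched by name. COX6A2 at 0.85 in HBL-1 stands highest, and complex I, with 37 of the 88 genes, holds 9 of the 23 filled points below 0 in K422, 14 of 30 in HBL-1 and 12 of 22 in OCI-Ly3.

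The small changes were mostly falls in 3 of the lines. By adjusted p alone, with no limit on size, 23 genes were lower and 5 higher in K422, 30 lower and 14 higher in HBL-1, 22 lower and 5 higher in OCI-Ly3, and 8 lower and 7 higher in DB. As shares, 26.1% of the members were lower in K422, against 16.6% of the expressed genes and 9.59% of all genes, while 5.68% were higher, against 17% and 9.81%. In HBL-1 34.1% were lower (25.9% of expressed, 15% of all genes) and 15.9% higher (27.9% and 16.2%). In OCI-Ly3 25% were lower (16.2% and 9.12%) and 5.68% higher (15.4% and 9.65%). In DB 9.09% were lower (11.4% and 5.96%) and 7.95% higher, against 6.17% of all genes and 1415 of the 13257 expressed genes. Both directions together, 15, 28, 44 and 27 of the 88 members passed in the 4 lines, against 22%, 33.6%, 53.8% and 31.6% of the expressed genes and 12.1%, 19.4%, 31.1% and 18.8% of all genes.

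**Figure D2:**
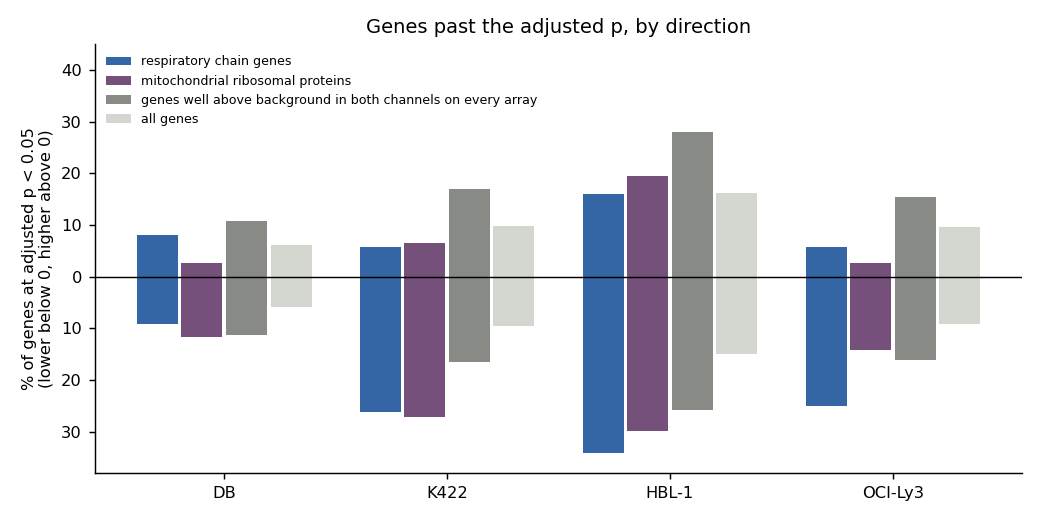
Percent of genes (vertical axis) that were higher (bars above 0) or lower (bars below 0) at an adjusted p under 0.05 in each line (horizontal axis), for respiratory chain genes, mitochondrial ribosomal protein genes, expressed genes and all genes. In K422 26.1% of respiratory chain genes were lower and 5.68% higher, whereas expressed genes stood at 16.6% and 17%.

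The median log2 ratio of the 88 genes was -0.01, -0.05, -0.06 and -0.05 in the 4 lines, where all genes have a median of 0 by centring and expressed genes lay between -0.01 and 0. Over single arrays the median of the members ran from -0.12 to 0.04 in DB, from -0.09 to -0.02 in K422, from -0.14 to 0 in HBL-1 and from -0.09 to -0.03 in OCI-Ly3. It was below the median of the expressed genes on 3 arrays of DB and on all 6 of each other line. The size of the shift depended on the normalization. With normexp background correction and centring in place of loess the medians were -0.19, -0.32, -0.38 and -0.19, those of the expressed genes -0.08, -0.11, -0.18 and -0.04, and the calls became 0 higher and 9 lower in K422 and 0 higher and 25 lower in HBL-1. As shares, 10.2% of members were called lower in K422, against 1.25% of all genes and 2.5% of expressed genes, and 28.4% in HBL-1, against 6.33% and 13.2%, while 0.255% and 0.501% of all genes were called higher.

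By complex, no single one held the falls. Of the 37 genes of complex I, the largest, 3 were lower and 1 higher by adjusted p in DB, 9 and 0 in K422, 14 and 6 in HBL-1, and 12 and 1 in OCI-Ly3, with medians of -0.03, -0.06, -0.09 and -0.06. The share lower was 8.11%, 24.3%, 37.8% and 32.4% in the 4 lines. In complex IV, with 17 genes, 0 were lower and 1 higher in DB, 3 and 3 in K422, 2 and 4 in HBL-1, and 1 and 1 in OCI-Ly3, with medians from -0.04 to 0.01. Of the 15 complex V genes 2 were lower and 1 higher in DB, 3 and 2 in K422, 5 and 2 in HBL-1, and 5 and 1 in OCI-Ly3. Of the 8 complex III genes 1, 3, 3 and 1 were lower in the 4 lines and 2, 0, 2 and 2 higher. The share lower was 12.5%, 37.5%, 37.5% and 12.5% in complex III and 13.3%, 20%, 33.3% and 33.3% in complex V. Of the 6 genes matched by name 1, 3, 3 and 1 were lower and 0 higher. No test compared one complex with another.

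The same direction recurred across lines for a small group. Genes lower by adjusted p in all 4 lines were ATP5F1, NDUFA5, NDUFAF2, NDUFB5, NDUFS6 and SDHB, 6 members (6.82%), against 1.79% of all genes and 3.61% of expressed genes, and 0 members were higher in all 4, against 1.84% and 4.03%. Lower in at least 3 lines were 13 members (14.8%, against 4.58% and 9.21%), which adds ATP5A1, CYCS, NDUFA6, NDUFB2, NDUFV2, UQCRC2 and UQCRQ. Higher in at least 3 was 1, COX6A2 (1.14%, against 4.63% and 9.51%). In opposite directions in different lines 3 members passed (3.41%, against 2.33% of all genes and 3.95% of expressed genes). These counts are descriptions, with no test of the list. The count lower in all 4 lines was 2 without K422 replicate 3 and 4 to 6 without each other replicate, 2 with siFOXP1_308 alone (NDUFA5 and NDUFAF2) and 0 with siFOXP1_309 alone. The share of all genes fell too, to 1.28% without K422 replicate 3, 0.677% with siFOXP1_308 alone and 0.282% with siFOXP1_309 alone. With the deposited matrix 5 members (5.68%) were lower in all 4 lines, against 7.47% of all genes.

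NDUFA5 is an accessory subunit in the peripheral arm of complex I, read by a probe at chr7:122968405-122968464 (hg18). In DB its log2 ratios were -0.50, -0.50 and -0.15 with siFOXP1_308 and -0.60, -0.24 and -0.42 with siFOXP1_309. In K422 they were -0.35, -0.59 and -0.60 with siFOXP1_308 and -0.28, -0.46 and -0.72 with siFOXP1_309. In HBL-1 they were -0.62, -0.56 and -0.56, then -0.29, -0.56 and -0.71, and in OCI-Ly3 -0.58, -0.42 and -0.35, then -0.49, -0.38 and -0.20. All 24 arrays were below 0, and the siRNAs overlapped in every line. The line means were -0.40 ± 0.17, -0.50 ± 0.17, -0.55 ± 0.14 and -0.40 ± 0.13 (SD, n = 6 arrays), with limma adjusted p of 0.000773, 5.56e-05, 6.33e-06 and 0.000381. Only HBL-1 passed the limit of 0.5, K422 falling just short of it and passing it without K422 replicate 1 (-0.59). A second, dimmer NDUFA5 probe read 0.03, -0.13, -0.30 and -0.07 in the same order, and the HBL-1 value fell short of the limit as the mean over probes (-0.42) and with normexp and loess (-0.40).

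Other falls shared by all 4 lines were smaller. NDUFS6, a zinc-binding accessory subunit of complex I (probe within chr5:1855479-1867502, hg18), had lowest, middle and highest ratios of -0.81, -0.15 and 0.04 in DB and of -0.38, -0.30 and -0.23 in K422. In HBL-1 they were -0.54, -0.37 and -0.25, and in OCI-Ly3 -0.37, -0.33 and -0.20. The means were -0.25 ± 0.30, -0.30 ± 0.05, -0.37 ± 0.10 and -0.30 ± 0.07 (SD, n = 6 arrays), with adjusted p from limma of 0.0305, 0.00578, 0.000643 and 0.00606, and only 1 array, in DB, lay above 0. The DB value rested on replicate 3, without which it was -0.09 (adjusted p = 0.234, limma). NDUFB5, a membrane-arm subunit of complex I (probe within chr3:180816475-180817467, hg18), averaged -0.25 ± 0.22, -0.23 ± 0.14, -0.27 ± 0.16 and -0.27 ± 0.16 and was below 0 on all 24 arrays. Its DB value did not pass without DB replicate 1 or 2, nor its K422 value without K422 replicate 3. SDHB, the iron-sulfur subunit of complex II (probe within chr1:17226929-17227722, hg18), ran from -0.38 to -0.08 in DB, from -0.25 to -0.05 in K422, from -0.52 to -0.19 in HBL-1 and from -0.33 to -0.20 in OCI-Ly3. Its means were -0.21 ± 0.12, -0.16 ± 0.07, -0.33 ± 0.11 and -0.25 ± 0.06, with adjusted p of 0.00431, 0.0168, 1.44e-05 and 0.000536 in the limma fit. SDHB too was below 0 on every array, although in K422 it no longer passed without replicate 2 or 3. ATP5F1, the stalk subunit b of ATP synthase (chr1:111805166-111805225, hg18), averaged -0.20 ± 0.09, -0.12 ± 0.05, -0.11 ± 0.12 and -0.22 ± 0.05, and NDUFAF2 averaged -0.22 ± 0.21, -0.26 ± 0.15, -0.31 ± 0.13 and -0.35 ± 0.11.

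**Figure D3:**
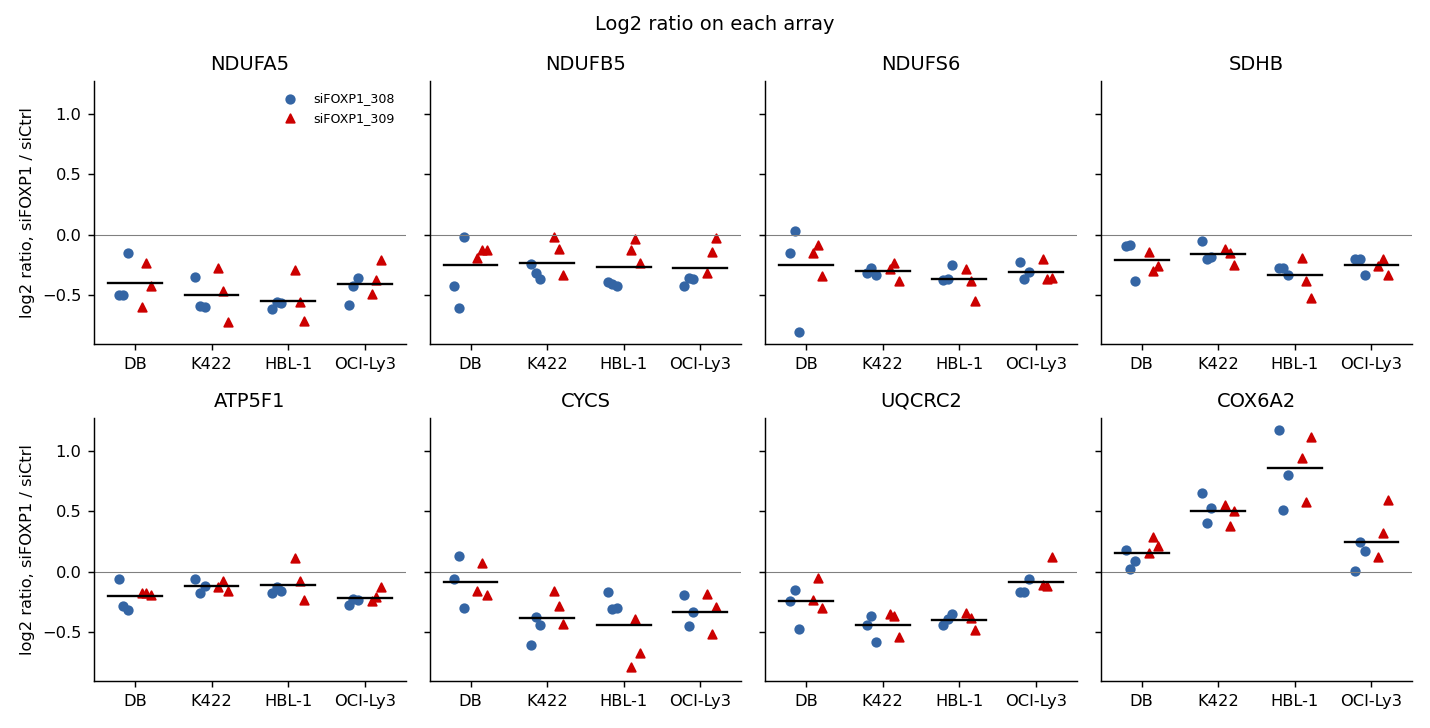
Log2 ratio of siFOXP1 over siCtrl (vertical axis) on each array by line (horizontal axis), with a panel for each of 8 genes, circles for siFOXP1_308, triangles for siFOXP1_309 and a black line for the line mean. NDUFA5, NDUFB5 and SDHB lie below 0 on all 24 arrays, whereas COX6A2 lies above 0 on all 24 and reaches 1.17 in HBL-1.

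COX6A2 (chr16:31346551-31346610, hg18) was the one gene that rose past the limit. With siFOXP1_308 its ratios in HBL-1 were 1.17, 0.51 and 0.80, and with siFOXP1_309 they were 0.94, 0.58 and 1.12. In K422 they were 0.65, 0.40 and 0.53, then 0.55, 0.38 and 0.50. In DB they were 0.18, 0.02 and 0.09, then 0.15, 0.29 and 0.21, and in OCI-Ly3 0.01, 0.25 and 0.17, then 0.12, 0.32 and 0.59. All arrays of K422 and HBL-1 lay above those of DB, and the siRNAs overlapped in every line. The means were 0.85 ± 0.27 in HBL-1 (1.81-fold), 0.50 ± 0.10 in K422 (1.42-fold), 0.24 ± 0.20 in OCI-Ly3 and 0.16 ± 0.09 in DB (SD, n = 6 arrays), with limma adjusted p of 2.38e-07, 0.000167, 0.0331 and 0.234. A single probe reads the gene. Its K422 value sits at the limit and was not called with slide as a block (0.48), with siFOXP1_309 alone (0.48), with normexp and loess (0.43) or without K422 replicate 1 (0.45) or 3 (0.496), and with normexp and centring it was 0.40 in HBL-1 (adjusted p = 0.069, limma) and 0.06 in K422 (adjusted p = 0.827, limma). COX6A1 had means of -0.07, 0.04, 0.01 and -0.06 in the 4 lines, and none passed the test.

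NDUFC1, an accessory subunit of the membrane arm of complex I (probe within chr4:140430648-140433144, hg18), fell in HBL-1. Its ratios there were -0.54, -0.43 and -0.48 with siFOXP1_308 and -0.73, -0.44 and -0.69 with siFOXP1_309, a mean of -0.55 ± 0.13 (SD, n = 6 arrays; limma adjusted p = 1.9e-06), and with siFOXP1_308 alone it was -0.48 and not called. In DB they were -0.31, -0.01 and -0.15 with siFOXP1_308 and 0.12, 0.36 and 0.13 with siFOXP1_309, a mean of 0.02. In DB the siRNAs did not overlap, and the difference between them had an adjusted p of 0.261 in the limma fit. The means were -0.22 ± 0.21 in K422, lower at an adjusted p of 0.0144 from limma, and 0.07 ± 0.13 in OCI-Ly3.

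Cytochrome c (CYCS) carries electrons from complex III to complex IV and triggers caspase activation when released from mitochondria. Its lowest, middle and highest ratios were -0.30, -0.11 and 0.13 in DB, -0.61, -0.41 and -0.16 in K422, -0.79, -0.35 and -0.17 in HBL-1 and -0.52, -0.32 and -0.19 in OCI-Ly3. The arrays of DB straddled 0 and those of the other lines were all below it. The means were -0.09 ± 0.16, -0.38 ± 0.15, -0.44 ± 0.24 and -0.33 ± 0.14 (SD, n = 6 arrays), with adjusted p of 0.484, 0.00033, 3.15e-05 and 0.00118 from limma. A second bright CYCS probe read -0.29, -0.46, -0.56 and -0.57, and a pair of dim ones ran from -0.27 to 0.74. In HBL-1 the siRNAs did not overlap, with means of -0.26 for siFOXP1_308 and -0.62 for siFOXP1_309 (adjusted p of the difference = 0.533, limma). CYCS has many processed pseudogenes of nearly the same sequence, so what its probes hybridise is uncertain.

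In complex III, UQCRC2, a core subunit (chr16:21902079-21902138, hg18), had lowest, middle and highest ratios of -0.48, -0.24 and -0.05 in DB, -0.59, -0.41 and -0.35 in K422, -0.48, -0.39 and -0.34 in HBL-1 and -0.17, -0.12 and 0.12 in OCI-Ly3. The arrays of K422 and HBL-1 all lay below those of OCI-Ly3. Its means were -0.24 ± 0.14, -0.44 ± 0.10, -0.40 ± 0.05 and -0.09 ± 0.11 (SD, n = 6 arrays), with adjusted p of 0.002, 4.43e-06, 3.45e-06 and 0.231 from limma. UQCRH, the hinge protein that helps cytochrome c dock, averaged -0.13 ± 0.12, -0.29 ± 0.10, -0.37 ± 0.10 (n = 5, as an outlier spot was left out) and -0.08 ± 0.10, and passed the test in K422 and HBL-1. UQCRFS1, the Rieske iron-sulfur subunit, was higher in DB at 0.15 ± 0.09 and in OCI-Ly3 at 0.14 ± 0.09, and read 0.06 and -0.02 in K422 and HBL-1. Another bright UQCRFS1 probe read only 0.03 in DB and 0.08 in OCI-Ly3. So by the brightest probe members of one complex read in opposite directions in DB, where the rise of UQCRFS1 rests on that probe.

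Complex II showed the same kind of split. Beside the fall of SDHB, the membrane anchors SDHC and SDHD passed the test upward in DB: SDHD ran from 0.15 to 0.28 with a mean of 0.20 ± 0.05 (SD, n = 6 arrays; limma adjusted p = 0.0277), and SDHC from -0.05 to 0.55 with a mean of 0.24 ± 0.25 (limma adjusted p = 0.00936). The SDHC ratios in DB were 0.23, 0.55 and 0.53 with siFOXP1_308 and 0.03, -0.05 and 0.18 with siFOXP1_309, without overlap, and the difference between the siRNAs had an adjusted p of 0.189 in limma. Another SDHD probe of like brightness read -0.05 in DB, and dimmer ones read 0.11 and 0.14. Without DB replicate 3 neither gene passed (adjusted p = 0.0845 for SDHC and 0.0944 for SDHD, limma), nor did SDHD without replicate 1 or 2. In the other lines SDHC read 0.00, -0.02 and 0.16 and SDHD 0.01, 0.11 and 0.15 in K422, HBL-1 and OCI-Ly3, none past the test. SDHA, the flavoprotein subunit, was lower in HBL-1 at -0.19 ± 0.04 and read -0.06, -0.11 and -0.14 in DB, K422 and OCI-Ly3.

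Isoforms that encode the same subunit did not move together. ATP5G1, ATP5G2 and ATP5G3 encode an identical mature subunit c, the rotor ring of ATP synthase. ATP5G2 rose in HBL-1, from 0.33 to 0.51 with a mean of 0.41 ± 0.06 (n = 6; adjusted p = 1.62e-06, limma), and in K422, with a mean of 0.23 ± 0.12 over 5 arrays. ATP5G3 was lower in both, at -0.21 ± 0.14 in K422, where an outlier spot was left out, and -0.21 ± 0.16 in HBL-1. ATP5G1 was lower in OCI-Ly3, at -0.27 ± 0.09. Complex IV held further small rises. COX8A averaged 0.27 ± 0.19 in K422 and 0.34 ± 0.09 in HBL-1, and COX6B1 0.30 ± 0.12 in HBL-1, all past the test, whereas in DB and OCI-Ly3 both genes lay between -0.02 and 0.06. COX5A passed in both directions, at 0.24 ± 0.18 in DB, -0.18 ± 0.13 in K422 and -0.22 ± 0.12 in HBL-1, but its other bright probe read -0.17, -0.20 and 0.05 there, opposite in sign in DB and HBL-1. For the other isoform pairs, COX4I1 was higher in HBL-1 at 0.18 ± 0.06 although its other bright probe read -0.05, COX7A2 was higher in K422 at 0.15 ± 0.12, COX6B2 was lower in HBL-1 at -0.32 ± 0.32, and COX7B and NDUFA4 passed in no line.

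The response of ABC-DLBCL lines was set against that of GCB-DLBCL lines as the mean of HBL-1 and OCI-Ly3 less the mean of DB and K422. No member was called, where 2.26% of all genes were (1.4% higher and 0.866% lower in ABC-DLBCL lines). An unadjusted p under 0.05 in limma was found for 14 (15.9%), against 20.7% of all genes and 30% of expressed genes. For 84 of the 88 the 95% interval of the difference lay within 0.5 of 0. By adjusted p alone 4 members passed, against 8.3% of all genes. They were ATP5L (-0.19, adjusted p = 0.00339), NDUFB6 (-0.18, adjusted p = 0.0113), NDUFV2 (-0.18, adjusted p = 0.0374) and COX4I1 (0.13, adjusted p = 0.0228), all from limma. The first rested on 1 pair of lines: ATP5L differed by -0.38 between HBL-1 and K422 and by -0.01 between OCI-Ly3 and DB. A dimmer ATP5L probe read 0.12 in K422 and 0.02 in HBL-1, and its difference between the subtypes was -0.09. The difference for NDUFB6 was -0.20 and -0.17, for NDUFV2 -0.21 and -0.14 and for COX4I1 0.19 and 0.08 in the same pairs, each pair being scanned together.

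The siRNAs were compared as siFOXP1_309 less siFOXP1_308, averaged over lines, although siFOXP1_309 lowered FOXP1 further in each line. No member was called, against 0.189% of all genes, and none passed by adjusted p alone, against 1.31%. An unadjusted p under 0.05 in limma was found for 5 (5.68%), against 10.8% of all genes and 15.8% of expressed genes. The 95% interval lay within 0.5 of 0 for 86 of the 88 genes, and the widest difference was 0.21, for NDUFB5. Its siRNAs did not overlap in HBL-1 (means of -0.41 for siFOXP1_308 and -0.13 for siFOXP1_309) or OCI-Ly3 (-0.38 and -0.16). Those of NDUFAF2 did not overlap in DB (-0.36 and -0.07) or OCI-Ly3 (-0.44 and -0.25). Both genes fell further there with siFOXP1_308, the weaker knockdown, as did COX7A2L, NDUFB6 and NDUFS1 in OCI-Ly3, also without overlap. The reverse held without overlap for CYCS and NDUFA8 (-0.24 and -0.38) in HBL-1. It also held for ATP5SL in K422 (-0.03 and -0.23) and HBL-1 (-0.13 and -0.33). All of these passed by adjusted p in the line, and the share of all genes without overlap was not counted. Adjusted p of these NDUFB5 and NDUFAF2 differences ran from 0.294 to 0.803 in limma.

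The siCtrl channel gives the level of each gene without FOXP1 silencing. Levels are log2 of Cy5 after normalization between arrays, averaged over the arrays of a replicate, so that n = 3 a line, and a probe's level is set only against that of the same probe in the line of the same scan session. A level difference was called at an adjusted p under 0.05 and at least 1 on the log2 scale (2-fold). Between OCI-Ly3 and DB 10 of the 88 genes were called, 2 higher and 8 lower in OCI-Ly3, against 26.5% of all genes. Between HBL-1 and K422 11 were called, 2 higher and 9 lower in HBL-1, against 25.7% of all genes. The median level difference of the members was -0.09 and -0.24, against -0.07 and -0.03 over all genes and -0.12 and -0.11 over expressed genes.

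The genes called lower in the ABC-DLBCL line of both pairs were CYCS, NDUFA4, NDUFA4L2 and NDUFS8, 4 of 88 (4.55%), against 4.34% of all genes, and 0 were higher in both, against 4.69%. NDUFA4L2 is counted by its call alone, as it was well above background on no siCtrl array of OCI-Ly3 or HBL-1. NDUFS8, an iron-sulfur subunit of complex I, had levels of 13.70, 13.76 and 13.70 in DB and 12.66, 12.60 and 12.55 in OCI-Ly3. In K422 they were 13.80, 13.67 and 13.62, and in HBL-1 12.59, 12.53 and 12.54. The groups did not overlap in either pair, and OCI-Ly3 was 2.17-fold below DB and HBL-1 2.21-fold below K422 (differences of -1.12 and -1.14, SE 0.08, limma adjusted p = 1.19e-06 and 1.16e-06). On the slide that held both lines the differences were -1.04 and -1.03, and with scaling on the 75th percentile the first pair differed by -0.90, short of the limit. NDUFA4 had levels of 15.20, 15.26 and 15.14 in DB, 13.38, 13.41 and 13.40 in OCI-Ly3, 14.64, 14.72 and 15.11 in K422 and 13.58, 13.47 and 13.51 in HBL-1. Its differences were -1.80 and -1.30, or 3.49-fold and 2.47-fold, with adjusted p of 4.49e-07 and 6.79e-06 in the limma fit, and its other probe gave -1.55 and -1.22.

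CYCS had levels of 13.61, 14.23 and 13.97 in DB against 12.53, 12.94 and 12.76 in OCI-Ly3, and of 14.10, 14.58 and 15.02 in K422 against 12.83, 12.97 and 13.08 in HBL-1. It was 2.29-fold and 3.05-fold lower in the ABC-DLBCL line (differences of -1.19 and -1.61, SE 0.23, adjusted p = 0.00145 and 0.000189 from limma), without overlap, and its second bright probe gave -1.22 and -1.21. With scaling on the 75th percentile the first pair differed by -0.99. NDUFA4L2 was at the edge of detection, well above background on 4 of 6 siCtrl arrays in DB, 5 of 6 in K422 and none in OCI-Ly3 and HBL-1. Taking the lowest signal well above background on each array for the undetected line, it was at least 2.43-fold higher in K422 than in HBL-1. The DB mean lay 1.58-fold above the same floor in OCI-Ly3, but 1 of 3 DB replicates lay below that floor, so no bound is given for DB. With normexp and loess its differences were -0.44 and -0.44, not called.

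**Figure D4:**
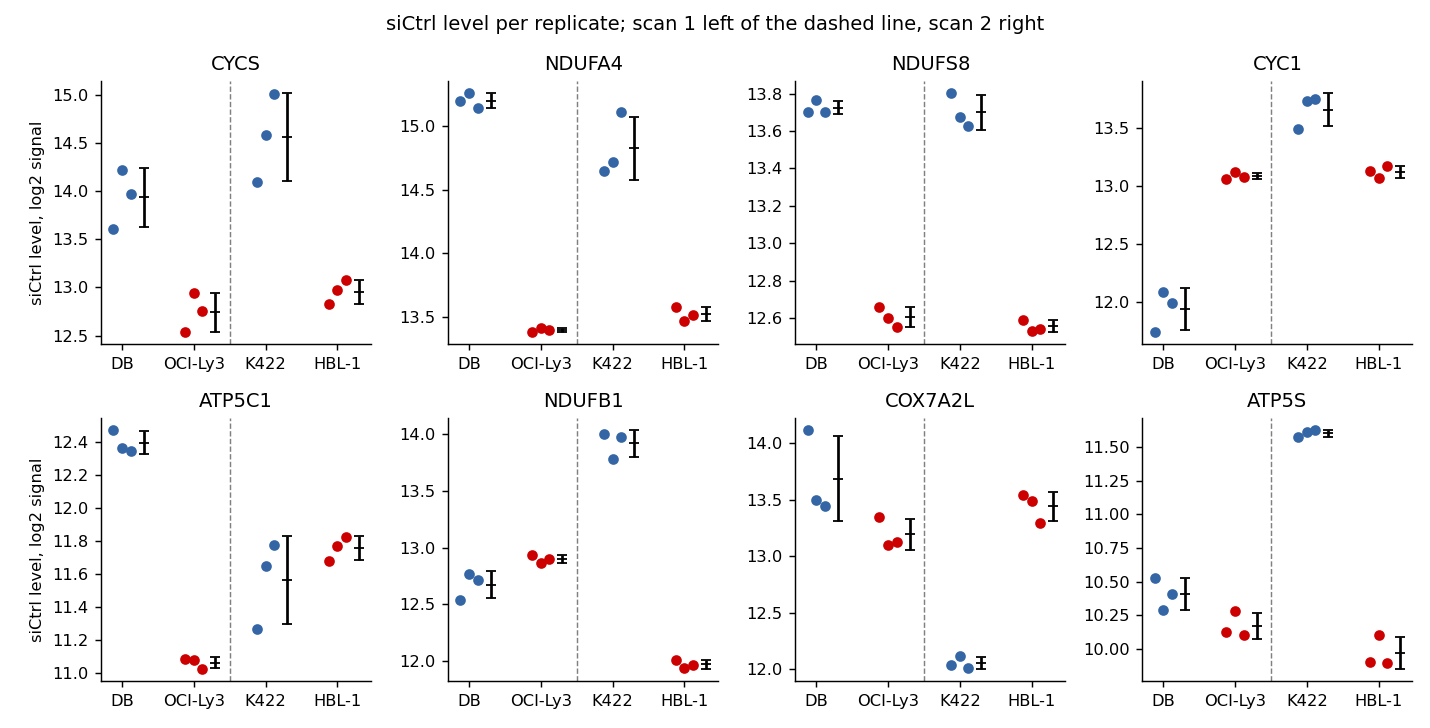
siCtrl level (log2 Cy5, vertical axis) in DB, OCI-Ly3, K422 and HBL-1 (horizontal axis, lines of a scan session side by side) for 8 genes, with points for the 3 replicates, bars for mean ± SD, blue for GCB-DLBCL and red for ABC-DLBCL. CYCS, NDUFA4 and NDUFS8 are lower in the ABC-DLBCL line of each pair, whereas CYC1 is higher in OCI-Ly3 than in DB and lower in HBL-1 than in K422.

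Most other level differences belonged to 1 pair. CYC1, the cytochrome subunit of complex III, had levels of 11.74, 12.09 and 11.99 in DB and 13.06, 13.12 and 13.08 in OCI-Ly3, a 2.21-fold higher level in OCI-Ly3 (adjusted p = 9.91e-06, limma), while HBL-1 lay 0.54 below K422. NDUFB1, a small membrane-arm subunit of complex I, had levels of 14.00, 13.78 and 13.97 in K422 and 12.01, 11.94 and 11.96 in HBL-1, 3.85-fold lower in HBL-1 (adjusted p = 5.18e-08, limma), while OCI-Ly3 lay 0.23 above DB. COX7A2L, which takes part in joining complexes III and IV into supercomplexes, had levels of 12.04, 12.11 and 12.01 in K422 and 13.54, 13.49 and 13.30 in HBL-1, 2.62-fold higher in HBL-1 (adjusted p = 6e-05, limma), and 0.50 lower in OCI-Ly3 than in DB. ATP5C1, the rotor-shaft subunit gamma of ATP synthase, had levels of 12.47, 12.36 and 12.34 in DB and 11.09, 11.08 and 11.03 in OCI-Ly3, 2.51-fold lower in OCI-Ly3 (adjusted p = 7.94e-06, limma), against a difference of 0.19 between HBL-1 and K422. A direct test of the difference between the pairs was called for 17 of the 88 genes (19.3%), against 31.6% of all genes.

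The other calls between OCI-Ly3 and DB were ATP5I (1.01), NDUFB2 (-1.56), NDUFAF2 (-1.37) and ATP5F1 (-1.15), and those between HBL-1 and K422 were NDUFA10 (1.05), ATP5S (-1.63), NDUFS5 (-1.52), NDUFAF1 (-1.34) and NDUFA7 (-1.11). ATP5F1, NDUFAF2 and CYCS were thus among the genes that both fell on silencing and differed in level between lines. SDHB, which fell on silencing in all 4 lines, was 1.98-fold lower in OCI-Ly3 than in DB, just short of the limit. COX6A2 levels did not differ past the test in either pair: the differences were -0.19 and -0.35 with adjusted p of 0.414 and 0.133 in limma.

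**Figure D5:**
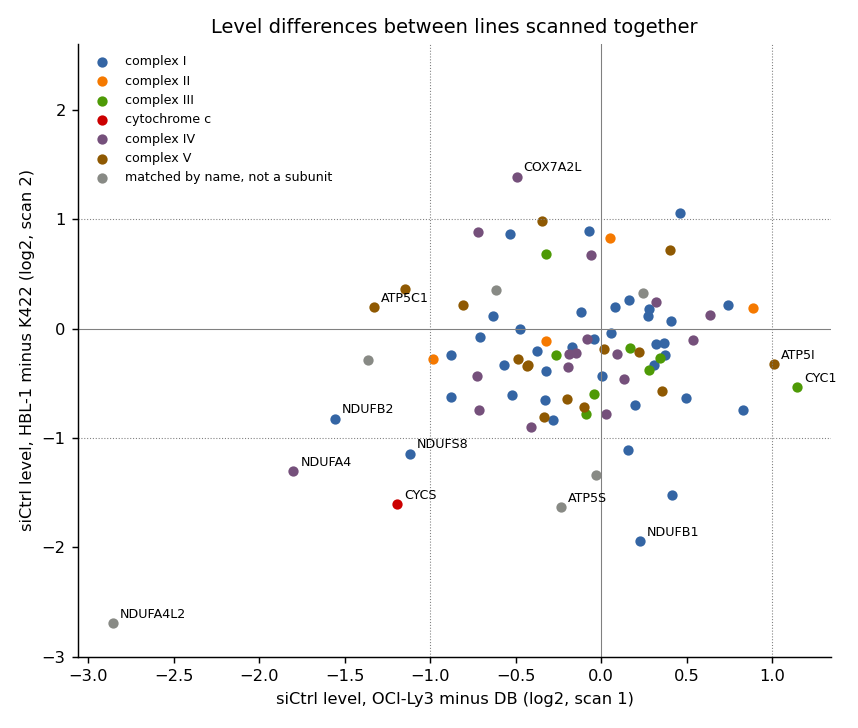
Difference in siCtrl level on the log2 scale between OCI-Ly3 and DB (horizontal axis) and between HBL-1 and K422 (vertical axis) for the 88 genes, coloured by complex, with dotted lines at 1 and -1. NDUFA4, CYCS and NDUFS8 lie past -1 on both axes and none lies past 1 on both, while the point of NDUFA4L2, lower left, is no measured difference, as the gene was well above background on no siCtrl array of OCI-Ly3 or HBL-1.

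Genes around the chain were read from lists fixed by name. Of 38 measured assembly factors of complexes I to V, 0 were called in DB, K422 and OCI-Ly3 and 1 in HBL-1 (TMEM126B, a complex I assembly factor, at -0.52 ± 0.13), while 11, 15, 16 and 15 were lower by adjusted p and 0, 3, 3 and 1 higher in the 4 lines. The list includes NDUFAF1 and NDUFAF2. Of 22 nuclear regulators of mitochondrial biogenesis 5, 9, 10 and 8 were lower by adjusted p and 3, 1, 1 and 3 higher. The share lower was 28.9%, 39.5%, 42.1% and 39.5% of the assembly factors and 22.7%, 40.9%, 45.5% and 36.4% of the regulators. For comparison, 11.4%, 16.6%, 25.9% and 16.2% of expressed genes and 9.09%, 26.1%, 34.1% and 25% of respiratory chain genes were lower. Among all genes 5.96%, 9.59%, 15% and 9.12% were lower and 6.17%, 9.81%, 16.2% and 9.65% higher. No test compared the lists. TFAM, which packages and transcribes mitochondrial DNA, was below 0 on all 24 arrays, with means of -0.23 ± 0.11, -0.40 ± 0.10, -0.56 ± 0.16 and -0.37 ± 0.07 (SD, n = 6 arrays) and limma adjusted p of 0.0026, 1.03e-05, 8.78e-08 and 1.95e-05, and was called in HBL-1. The coactivator PPARGC1B was called in K422, at -0.66 ± 0.04, and averaged -0.14, -0.47 and -0.45 in DB, HBL-1 and OCI-Ly3. PPARGC1A was called higher in OCI-Ly3 but was well above background on no siCtrl array there.

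Of 24 genes of the tricarboxylic acid cycle and pyruvate dehydrogenase, 0, 4, 1 and 1 were called in the 4 lines, all lower. Of all genes 0.829%, 2.1%, 4.17% and 1.62% were called lower. By adjusted p 3, 7, 8 and 5 were lower and 3, 3, 4 and 3 higher. The share lower was 12.5%, 29.2%, 33.3% and 20.8%, against 11.4%, 16.6%, 25.9% and 16.2% of expressed genes. PDHA1, the alpha subunit of pyruvate dehydrogenase that feeds acetyl-CoA to the cycle, was below 0 on all 24 arrays. It ran from -0.38 to -0.29 in DB, from -0.76 to -0.48 in K422, from -0.53 to -0.44 in HBL-1 and from -0.29 to -0.18 in OCI-Ly3, with means of -0.34 ± 0.03, -0.61 ± 0.12, -0.49 ± 0.03 and -0.23 ± 0.04 (SD, n = 6 arrays; limma adjusted p = 1.94e-06, 7.96e-10, 3.21e-09 and 3.39e-05). The phosphatase PDP2 was called in K422 at -0.55 ± 0.15. The called kinase genes PDK4 and PDK2 were at background in most siCtrl arrays where they were called, so their ratios carry no measured level. Of 22 genes of glycolysis and lactate 3 were called in HBL-1, all higher, where 5.73% of all genes were called higher, and 0 in each other line. By adjusted p 1, 2, 6 and 3 were higher and 2, 4, 4 and 3 lower in the 4 lines. PFKL, a phosphofructokinase, averaged 0.72 ± 0.18 in HBL-1, ALDOC, an aldolase, 0.59 ± 0.25, and the glucose transporter SLC2A3 0.61 ± 0.75, the last well above background on 2 of 6 siCtrl arrays. PFKL also passed by adjusted p in DB (0.47), K422 (0.30) and OCI-Ly3 (0.48).

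Of 77 mitochondrial ribosomal protein genes 0 were called in any line, and 9, 21, 23 and 11 were lower and 2, 5, 15 and 2 higher by adjusted p, with medians of 0.01, -0.07, -0.06 and -0.05. Of 103 genes matched by cytosolic ribosomal protein names, a match that takes in ribosomal S6 kinases, 1 was called higher in DB and 0 in the other lines, and 19, 27, 37 and 23 were lower and 5, 8, 21 and 11 higher by adjusted p, with medians of -0.04, -0.04, -0.07 and -0.05. The share lower was 11.7%, 27.3%, 29.9% and 14.3% of the mitochondrial list and 18.4%, 26.2%, 35.9% and 22.3% of the cytosolic one. Expressed genes stood at 11.4%, 16.6%, 25.9% and 16.2%. The small negative median of the respiratory chain was shared by both ribosomal lists in K422, HBL-1 and OCI-Ly3, and no test set one list against another. Levels in siCtrl RNA differed between OCI-Ly3 and DB for 15.8% of the 38 assembly factors, 22.7% of the nuclear regulators, 33.3% of the tricarboxylic acid cycle list and 36.4% of the glycolysis list, against 26.5% of all genes. Of the ribosomal genes 6 of 77 mitochondrial and 11 of 103 cytosolic ones did. Between HBL-1 and K422 the shares of the first 4 lists were 28.9%, 18.2%, 20.8% and 27.3%, against 25.7% of all genes, with 8 mitochondrial and 10 cytosolic ribosomal genes.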

How the data were processed

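Two-colour Agilent arrays compared siFOXP1 (Cy3) with siCtrl (Cy5) RNA, 24 arrays in all. The authors deposited Feature Extraction output (version 10.5.1.1 for scan 1 and 10.7.3.1 for scan 2, per the file headers), with a background-subtracted intensity for each dye and the log10 Cy5/Cy3 ratio, dye-normalized array by array (linear and loess). The authors also deposited a matrix of 41078 log2 values, which correlated at 0.804 to 0.998 per array with the ratios used here and has array medians from -0.17 to 0.07, and it served as an alternative. Of 45015 spots an array, 1639 control spots and 113 to 469 outlier spots were left out. Ratios were converted to log2, turned to siFOXP1 over siCtrl and centred on each array's median. At background the software substitutes a surrogate signal or a ratio of 0. The number of arrays limits the precision.

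R 4.3.3 with limma 3.58.1 fitted all 24 arrays with a mean for each line and siRNA, both siRNAs being averaged for a line. siCtrl levels are log2 of processed Cy5 intensity after Aquantile normalization between arrays. Benjamini-Hochberg adjustment ran over all genes. Scripts were tested on simulated data. Replicates are biological, per the labels. Same-numbered arrays of a line also share 1 of 6 slides, and their deviations correlated at 0.114 to 0.573 over 16456 genes above background, every pair over 0.1 (0.0468 to 0.284 over all genes), so the numbers were taken to pair arrays. Levels were averaged over each pair. The main fit of ratios had no block for the pairs and treated the arrays of a line as independent, and a block was an alternative only.

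The members and lists were chosen with earlier results of these data known. Named genes are up to 4 rises and 4 falls called per comparison (otherwise the 3 of greatest change), every member called in several, the complex II genes, CYC1, CYCS, the isoform pairs (COX8C was not on the array) and up to 3 called genes per pathway list. Members outside this rule were named after their values were seen. Gene names and hg18 probe coordinates are those of the array design, and promoter sequences are from RefSeq (GRCh38.p14). Results were recomputed from the deposited matrix, after normexp (offset 50) followed by loess or centring, without dim probes, with outlier spots, as the mean over probes, with replicate or slide as a block, for each line or siRNA alone, with the methods' t-test, 75th-percentile or quantile scaling of levels and other limits, and leaving out each replicate.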

Additional observations from a re-analysis of the deposited data

Results flagged for a closer look

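In 149 groups of 6 arrays, each a gene in a line, the highest or lowest array was set against the others by Dixon's test, and 8 stood apart, where chance gives about 7.45. Another 15 gene and line pairs not well above background in either channel were not examined, a choice made after seeing that such ratios are mostly exactly 0. In DB, COX4I1 read -0.24 on siFOXP1_309 replicate 2 (the others -0.05 to 0.01) and COX6B2 0.74 on siFOXP1_309 replicate 1 (-0.36 to 0.05). In K422, SDHA read 0.15 on siFOXP1_309 replicate 1 (-0.20 to -0.11), NDUFA4 0.22 on siFOXP1_309 replicate 2 (-0.09 to 0.02) and NDUFA7 -0.26 on siFOXP1_308 replicate 1 (-0.04 to 0.05). In HBL-1, NDUFA5 read -0.29 on siFOXP1_309 replicate 1 (-0.71 to -0.56). In OCI-Ly3, UQCRC2 read 0.12 on siFOXP1_309 replicate 3 (-0.17 to -0.06) and ATP5I -0.72 on siFOXP1_308 replicate 2 (-0.21 to -0.14).

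Effects that differed between groups by a direct test were next. The response of COX4I1 differed between ABC-DLBCL and GCB-DLBCL lines by 0.13 (limma adjusted p = 0.0228). For siCtrl levels, the difference between OCI-Ly3 and DB less that between HBL-1 and K422 was tested. By limma it was positive for NDUFB1 (2.17, adjusted p = 4.58e-07), NDUFS5 (1.93, adjusted p = 0.000861), CYC1 (1.68, adjusted p = 1e-05), ATP5S (1.40, adjusted p = 1.91e-05), ATP5I (1.34, adjusted p = 8.23e-05), NDUFAF1 (1.31, adjusted p = 0.000209) and NDUFA7 (1.27, adjusted p = 4.5e-05). By limma it was also negative for COX7A2L (-1.88, adjusted p = 9.36e-05), ATP5C1 (-1.52, adjusted p = 5.17e-05), ATP5F1 (-1.51, adjusted p = 8.64e-05) and NDUFAF2 (-1.07, adjusted p = 0.000266). The scan sessions of the pairs also differed, and their part in these values cannot be told apart from that of the lines.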

How the results depend on the processing

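Of the counts and medians above, 264 values under an alternative stayed the same and 23 moved. A count stayed if it was equal or of like size, and a median if it shifted by less than the standard deviation of the array medians. No called value reversed, whereas the median in DB, which no test called, changed sign. With normexp and loess 0 members were called in K422. With normexp and median centring the medians were -0.19, -0.32, -0.38 and -0.19 in the 4 lines, with 9 members called in K422 and 25 in HBL-1. This setting omits the intensity-dependent dye correction and also lowered the expressed genes. The deposited matrix gave 1 call in OCI-Ly3 (COX7A1, at background). By adjusted p alone 15, 28, 44 and 27 members passed in the 4 lines and 4 between the subtypes. In K422 siFOXP1_308 alone gave 2 calls (COX6A2 and NDUFA5) and siFOXP1_309 alone 0. A level limit of 0.5 gave 27 genes for OCI-Ly3 against DB and 35 for HBL-1 against K422.

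Leaving out a replicate gave 0 to 0 calls in DB, 0 to 1 in K422 (0 without K422 replicate 3, and NDUFA5 in place of COX6A2 without K422 replicate 1), 3 to 3 in HBL-1, 0 to 0 in OCI-Ly3, between the subtypes and between the siRNAs, 9 to 11 for the level in OCI-Ly3 against DB and 10 to 13 in HBL-1 against K422. The medians ran from -0.04 to 0.02 in DB, -0.06 to -0.05 in K422, -0.06 to -0.04 in HBL-1 and -0.06 to -0.05 in OCI-Ly3. The fit with the replicate block (consensus correlation 0.248) called 0, 1, 3 and 0 members in the lines and 10 and 11 level differences, the same numbers as without it. Slide as a random block exchanged the K422 call of COX6A2 (0.48) for NDUFA5 (-0.52). A fixed slide block for levels, added after seeing the data, lost ATP5I at 0.92 and both calls of NDUFA4L2, and gained SDHB (-1.13) in OCI-Ly3 against DB and NDUFB2 (-1.10) in HBL-1 against K422. The methods' t-test with Benjamini-Hochberg adjustment and the same limit called 0, 1, 3 and 0. The count of members lower by adjusted p in all 4 lines, recomputed after seeing the data, was 6 as reported, 2 to 6 without a replicate (2 without K422 replicate 3), 4 with the replicate block, 2 with siFOXP1_308 alone, and 0 with siFOXP1_309 alone, with normexp and centring and by the methods' t-test. Of all genes 1.79% were so as reported, 1.28% with the replicate block and 0.677% with siFOXP1_308 alone. With siFOXP1_309 alone, normexp and centring and the t-test, 0.282%, 0.0232% and 0.0962% of all genes were. By adjusted p, COX8A in K422 did not pass without K422 replicate 3 (0.17), NDUFAF2 in DB without DB replicate 3 (-0.15), NDUFC1 in K422 without K422 replicate 1 or 3, NDUFS6 in K422 without K422 replicate 3 and in OCI-Ly3 without OCI-Ly3 replicate 2 or 3, SDHA in HBL-1 without HBL-1 replicate 2, or COX6A2 in OCI-Ly3 without OCI-Ly3 replicate 2 or 3. Among single genes 22 values lost and 77 gained a call, and ATP5I and NDUFA10 levels lay near the limit.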
